A study of Mus musculus with 8 samples.

Results

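The genes described here are 10 factors of the switch from neuron to astrocyte production in the embryonic cortex. They are the nuclear factor I genes Nfia, Nfib and Nfix, the transcription factor gene Sox9, and 6 genes of the cytokine pathway that runs from gp130 receptors to JAK and STAT (Ctf1, Cntfr, Lifr, Il6st, Jak2 and Stat3). They were chosen by gene symbol, and all 10 were found among the 23284 symbols of the count files and passed the filter on low counts with 14696 genes in all. RNA was measured by RNA-seq in dorsal cortex of E15.5 embryos of the C57BL/6 strain, in 4 WT libraries and 4 ErbB4-/- libraries. ErbB4 is a receptor tyrosine kinase, and the comparison asks which genes differ when it is lost. The ErbB4-/- mice carry a transgene that supplies ErbB4 to the heart under a cardiac promoter, since embryos without it die, and the WT embryos came from a separately kept colony. Meninges and ganglionic eminences were dissected away, and the remaining tissue holds many cell types.

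In the developing cortex, radial glia first make neurons and later astrocytes. Cytokines of the interleukin 6 family drive the later step. Cardiotrophin 1, made by newborn neurons, and ciliary neurotrophic factor bind receptors that include LIFR and gp130 (the product of Il6st), with CNTFR as the part that binds ciliary neurotrophic factor. The bound receptors activate JAK kinases, which phosphorylate STAT3, and STAT3 then binds the promoters of astrocyte genes such as Gfap. SOX9 and NFIA act earlier in the same precursors, and NFI proteins help to free astrocyte promoters from repression. The cleaved intracellular domain of ErbB4 has been placed at this switch, as part of a repressor complex with TAB2 and NCoR in precursor nuclei.

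None of the 10 genes passed the test between the genotypes. In edgeR's quasi-likelihood test with Benjamini-Hochberg adjustment, 0 of the 10 were called at an adjusted p under 0.05, against a background of 0.0272% of all genes tested (4 of 14696). An unadjusted p under 0.05 was reached by 1 of the 10, Cntfr, against 5.53% of all genes tested. The WT and ErbB4-/- libraries overlapped in every one of the 10, so 0 were separated, against 3.34% of all genes tested. Fitted log2 fold changes (ErbB4-/- over WT) were above 0 for 5 members and below 0 for 5, with a median of 0.0032 beside −0.0022 over all genes tested. DESeq2 and limma-voom also called 0 of the 10. Against backgrounds this low, counts of 0 or 1 among 10 genes set the members apart in neither direction.

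**Figure D1:**
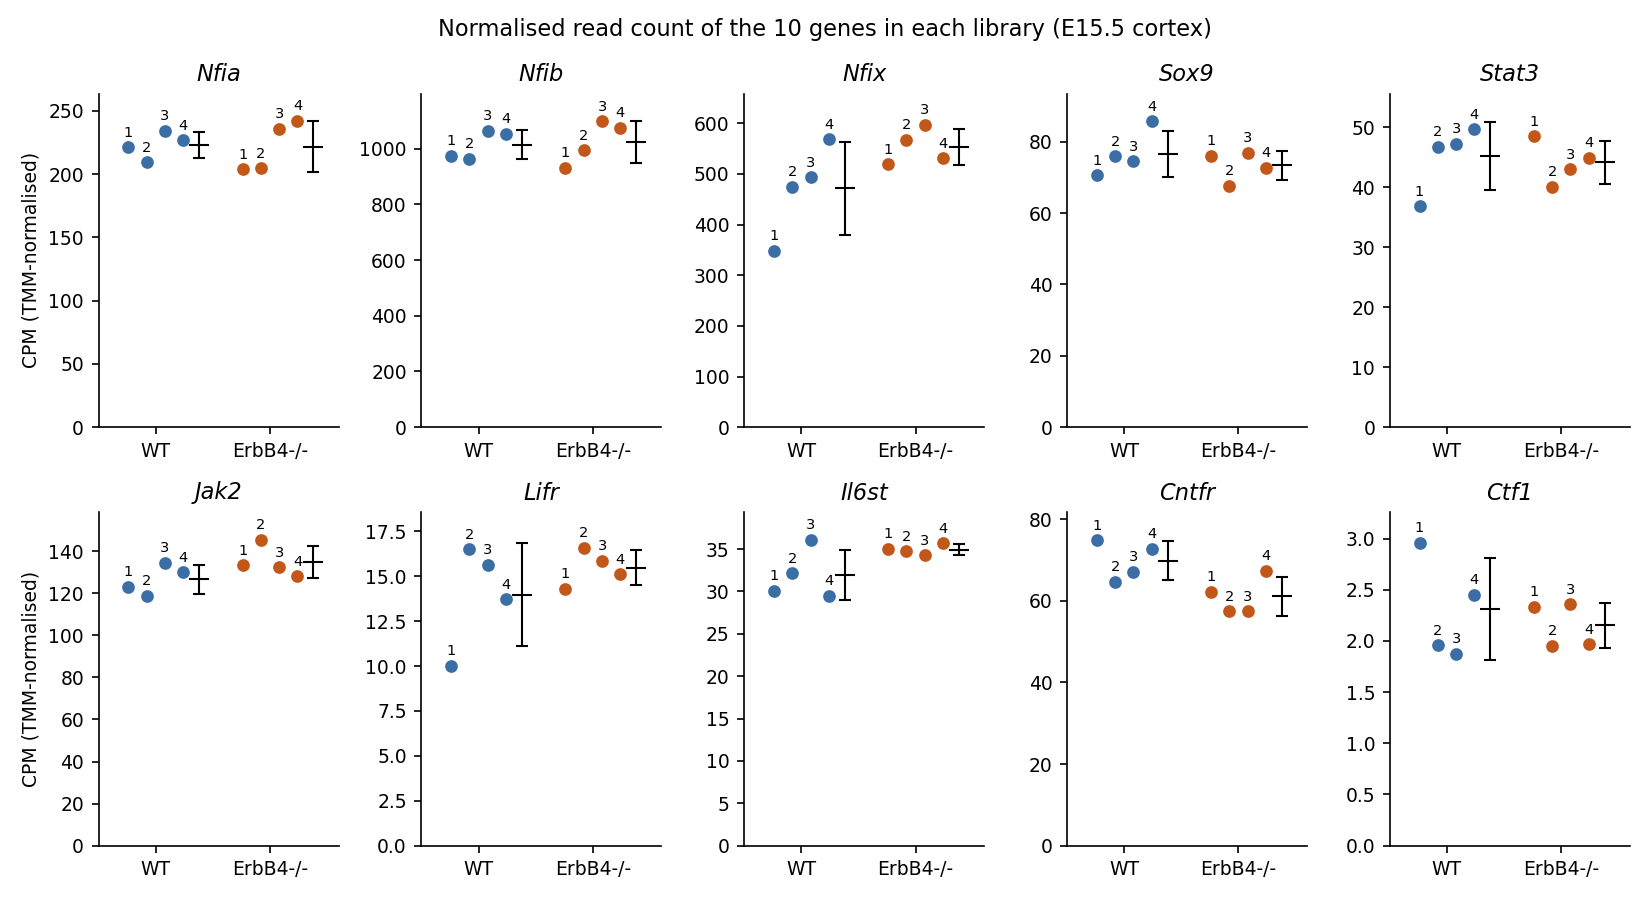
Normalised read count (CPM after TMM normalisation) of each gene in each library, with the replicate number above each point, for 4 WT (blue) and 4 ErbB4-/- (orange) libraries, and the mean with its SD as a bar. The genotypes overlap in all 10 panels, and WT replicate 1 is the lowest library in Nfix, Stat3 and Lifr and the highest in Cntfr and Ctf1.

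Some facts of the libraries bear on these genes. Depth ran from 28205703 to 48871480 counts per library. Erbb4 itself was not lower in the libraries labelled ErbB4-/-: its mean was 18.3 CPM in WT and 22.4 CPM in ErbB4-/-. This was a log2 fold change of 0.28 (SE 0.23, n = 4 per genotype, edgeR adjusted p = 0.812). It was 0.06 without WT replicate 1, which held 8.99 CPM, and 0.48 without WT replicate 3. The counts cover the whole gene and the sources used here do not say which exons the allele alters, so they do not check the label, and directions below are those of the libraries labelled ErbB4-/-. WT replicate 1 stood apart from the other libraries, with a Spearman correlation between its log2 deviation and transcript length of −0.595 across genes, where the other 7 libraries ran from 0.0404 to 0.229. Sex-linked RNA also moved with genotype, since Xist was at 983 to 1687 CPM in WT replicates 1 to 3 and at 2.70 to 3.82 CPM in WT replicate 4 and all ErbB4-/- libraries. Ddx3y, on the Y chromosome, was at 0.257 to 0.495 CPM in the former and 76.4 to 80.9 CPM in the latter libraries. Embryo sex was thus nearly confounded with genotype, and the 2 cannot be told apart here. Fits with Xist as a covariate, given below for some genes, do not separate them. The SE of every member was larger in that fit, as for Nfia (0.115 against 0.0681). Summed markers of radial glia (1702 to 2217 CPM in WT, 1699 to 1855 CPM in ErbB4-/-), projection neurons, endothelial cells, microglia, meningeal fibroblasts, oligodendrocyte precursors and ganglionic eminence overlapped between the genotypes. Red blood cell markers were at 18.8 to 41.6 CPM in WT (mean 32.9), with Hba-a1 and Hba-a2 at 0 in all libraries. In ErbB4-/- replicates 1 to 4 these markers were at 5.30, 5.72, 9.22 and 23.4 CPM (mean 10.9). Only ErbB4-/- replicate 4 lay within the WT range. The part of any of these facts in the values below was not tested. In such bulk tissue, fewer cells of a type and less RNA per cell cannot be told apart.

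NFI proteins bind DNA as dimers and STAT3 binds as a phosphorylated dimer, so the starts of the genes were searched for both motifs. RefSeq windows on GRCm38.p6, from 250 bases before to 50 bases after each transcript start, were present for 8 of the 10 members (17 windows), Sox9 and Nfib not being among them. The STAT motif TTCNNNGAA, read on both strands, stood in 1 of the 17 windows, at an Nfix start, and in 2726 of all 32851 windows (8.30%). The NFI palindrome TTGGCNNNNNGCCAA stood in 0 of the 17 and in 12 of all windows (0.0365%). Among the other pathway genes, 8 of 66 windows held the STAT motif, including those of Socs3, the feedback inhibitor induced by STAT3, and Gfap, the intermediate filament gene of astrocytes, while 0 of the 66 held the NFI palindrome. The windows of Nfix (chr8:84775779-84776078, minus strand), Socs3 (chr11:117969317-117969616, minus strand) and Gfap (chr11:102897151-102897450, minus strand) are shown 5′ to 3′ because they hold the motif at the member, at the pathway's inhibitor and at its astrocyte target, with the match in capitals.
Nfix: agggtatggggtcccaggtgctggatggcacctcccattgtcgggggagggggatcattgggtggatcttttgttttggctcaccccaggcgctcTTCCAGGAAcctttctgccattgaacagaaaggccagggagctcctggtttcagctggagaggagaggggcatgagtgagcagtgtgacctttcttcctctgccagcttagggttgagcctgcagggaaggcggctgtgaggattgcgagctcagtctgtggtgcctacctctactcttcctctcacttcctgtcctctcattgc
Socs3: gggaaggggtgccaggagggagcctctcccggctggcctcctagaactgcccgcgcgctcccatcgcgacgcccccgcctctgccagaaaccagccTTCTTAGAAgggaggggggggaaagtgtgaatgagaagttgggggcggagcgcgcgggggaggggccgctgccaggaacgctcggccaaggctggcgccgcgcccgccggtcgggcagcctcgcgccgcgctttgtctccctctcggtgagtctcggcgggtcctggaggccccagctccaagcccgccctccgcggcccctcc
Gfap: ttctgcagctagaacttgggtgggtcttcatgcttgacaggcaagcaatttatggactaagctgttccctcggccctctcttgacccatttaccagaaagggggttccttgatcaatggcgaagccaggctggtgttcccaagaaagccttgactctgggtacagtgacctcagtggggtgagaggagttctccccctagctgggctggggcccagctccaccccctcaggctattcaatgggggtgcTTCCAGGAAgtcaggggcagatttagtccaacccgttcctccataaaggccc
A match is a description of these letters and not a bound site. The expression values of these 3 genes follow below, and edgeR called a difference in none of them (adjusted p = 0.810 for Nfix, 0.941 for Socs3 and 0.810 for Gfap).

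Among the members, Nfib and Nfix gave the highest levels per transcript length and Lifr and Ctf1 the lowest. Levels between genes are compared here as CPM per kb of the longest annotated transcript, over all 8 libraries. Nfib was at 112 ± 6.66 CPM per kb (SD, n = 8) and Nfix at 93.6 ± 14.2, and their ranges (102 to 120 and 63.7 to 109) overlapped. With all annotated exons merged as the length, Nfix came just above Nfib (69.6 and 68.2 CPM per kb), so their order is not settled by these data. Cntfr (28.8 to 37.5 CPM per kb), Jak2 (23.6 to 28.9) and Nfia (21.4 to 25.4) followed, each overlapping its neighbour, and Cntfr and Jak2 also changed places with merged exons. Sox9 was at 18.1 ± 1.29 CPM per kb, below every value of Nfia and above every value of Stat3 by longest transcript. With merged exons the mean of Nfia, 20.3 CPM per kb, lay within the Sox9 range (16.4 to 20.7). Stat3 (7.39 ± 0.729) and Il6st (6.42 ± 0.489) overlapped and changed places with merged exons. Ctf1 (1.66 ± 0.274) and Lifr (1.53 ± 0.223) overlapped at the bottom of the order.

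**Figure D2:**
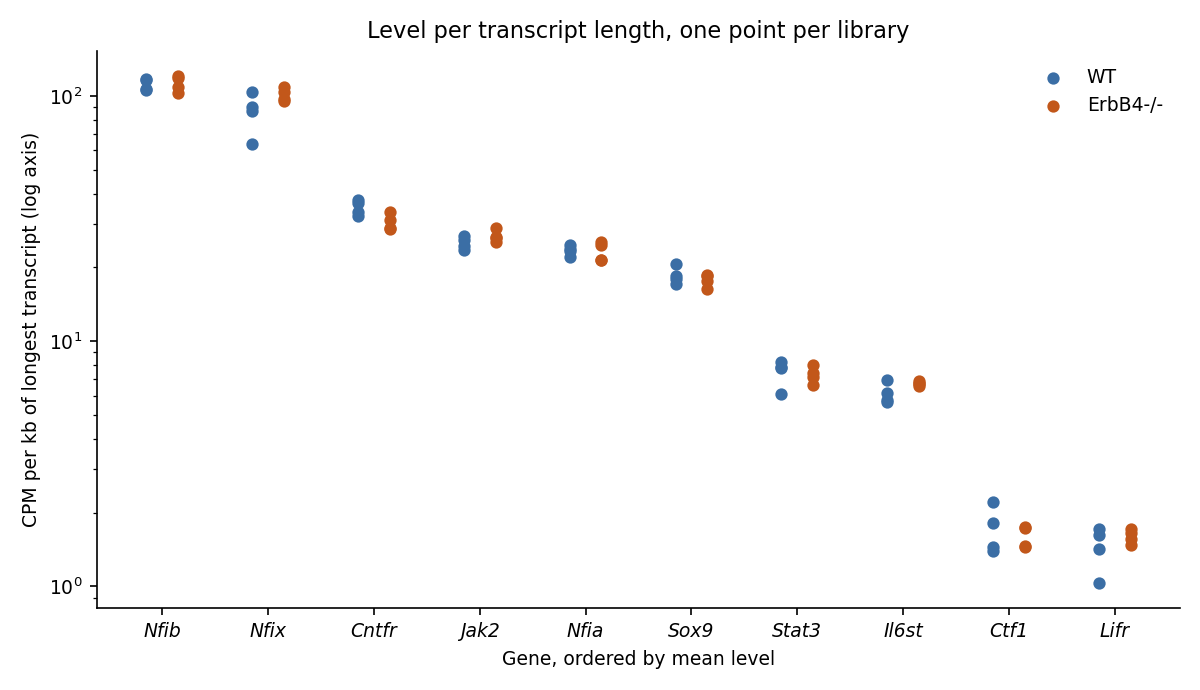
Level of each gene as CPM per kb of its longest transcript on a log axis, with 1 point for each of 4 WT (blue) and 4 ErbB4-/- (orange) libraries, ordered by mean. Levels run from 112 CPM per kb for Nfib to 1.53 CPM per kb for Lifr, and the genotypes overlap within each gene.

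The gp130 receptor chains were thus present at unequal levels. Lifr and Il6st are the chains that carry the signal into the cell, and Cntfr has no signalling domain. Per transcript length, Cntfr exceeded Lifr in every library, by 16.8 to 36.1 times, and exceeded Il6st by 4.32 to 6.48 times. Its ratio to Il6st was 5.76 ± 0.826 in WT and 4.56 ± 0.277 in ErbB4-/- (SD, n = 4 each), and the exact two-sided permutation test gave p = 0.0571, or 0.171 adjusted over the 6 ratios computed. The ratio of Nfix to Nfib was 0.771 ± 0.128 in WT and 0.902 ± 0.0563 in ErbB4-/- (exact permutation p = 0.0571, adjusted 0.171). Both ratios overlapped between the genotypes. The ratio of Nfib to Nfia varied least, from 4.61 to 5.07 over the 8 libraries, although each gene was counted on its own. These ratios were chosen after the levels had been seen.

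The NFI factors had values that were close in both genotypes for Nfia and Nfib and more spread for Nfix. Nfia (chromosome 4, 97439425 to 97868605, mm9) is the family member best known for starting gliogenesis. It was at 221, 209, 234 and 227 CPM in WT replicates 1 to 4 and at 204, 205, 236 and 242 CPM in ErbB4-/- replicates 1 to 4. The lowest and the highest libraries were both ErbB4-/-, so the WT values lay inside the ErbB4-/- range. Its log2 fold change was −0.01 (SE 0.07, edgeR adjusted p = 0.984), with a 95% interval of the fold from 0.897 to 1.10. With the trend on transcript length removed, the log2 fold change of Nfia was −0.117.

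Nfib (chromosome 4, 81936077 to 82351654), which also acts in the growth of cortical projections, was at 976, 964, 1064 and 1055 CPM in WT and at 933, 994, 1098 and 1076 CPM in ErbB4-/-. Again ErbB4-/- replicates held both the lowest and the highest value. In the fit, Nfib had a log2 fold change of 0.01 (SE 0.07, edgeR adjusted p = 0.968), and the 95% interval of the fold ran from 0.915 to 1.11. With 27355 to 45934 reads per library, Nfib was the most deeply counted of the 10.

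Nfix (chromosome 8, 87223775 to 87324243), which acts in progenitor differentiation, had the largest fitted fold change of the 10 over all 8 libraries. It was at 349, 474, 493 and 569 CPM in WT and at 520, 568, 598 and 531 CPM in ErbB4-/-. WT replicates 1 to 3 lay below all ErbB4-/- libraries, and WT replicate 4 lay among them. The fitted log2 fold change was 0.23 (SE 0.12, 95% interval −0.03 to 0.49, edgeR adjusted p = 0.810; exact permutation p = 0.143), with means of 471 ± 91.4 CPM in WT and 554 ± 35.5 CPM in ErbB4-/- (SD, n = 4 each). Without WT replicate 1 it was 0.11, and without WT replicate 4 it was 0.34 (edgeR adjusted p = 0.815). In the latter setting the remaining libraries of Nfix were separated, as were those of 861 of all 14777 genes tested. With Xist as a covariate, which rests mainly on WT replicate 4, the log2 fold change of Nfix was −0.01.

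Sox9 (chromosome 11, 112643538 to 112649074) is needed in precursors for glial competence. It was at 70.6, 76.0, 74.5 and 85.7 CPM in WT and at 76.1, 67.7, 76.9 and 72.7 CPM in ErbB4-/-. WT replicate 4 was the highest library and ErbB4-/- replicate 2 the lowest, with the other 6 in a narrow band between them. For Sox9 the fitted log2 fold change was −0.06 (SE 0.07, 95% interval −0.22 to 0.09, edgeR adjusted p = 0.847). It was −0.22 with Xist as a covariate, −0.10 without WT replicate 1 and −0.0062 without WT replicate 4.

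On the cytokine side, the ligand gene Ctf1 (chromosome 7, 134856250 to 134861699) had the fewest reads of the 10, with 61 to 115 per library. Its values were 2.96, 1.96, 1.88 and 2.45 CPM in WT and 2.33, 1.95, 2.36 and 1.97 CPM in ErbB4-/-. WT held both ends of the range. Its log2 fold change of −0.09 (SE 0.18, edgeR adjusted p = 0.917) had a 95% interval of the fold from 0.713 to 1.24, the widest of the 10, and was 0.04 without WT replicate 1 and −0.23 with Xist as a covariate. Exons of Ctf1 overlap those of Ctf2 on the other strand, and the libraries do not keep the strand. Ctf2 had only 2 to 9 reads per library.

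Cntfr (chromosome 4, 41604529 to 41644121), the chain that binds ciliary neurotrophic factor, came nearest to a difference. It was at 74.8, 64.7, 67.1 and 72.7 CPM in WT and at 62.2, 57.5, 57.4 and 67.3 CPM in ErbB4-/-. WT replicates 2 and 3 lay below ErbB4-/- replicate 4, and the other 3 ErbB4-/- libraries lay below all WT libraries. The means were 69.8 ± 4.71 CPM in WT and 61.1 ± 4.74 CPM in ErbB4-/- (SD, n = 4 each). This gave a log2 fold change of −0.19 (SE 0.07, 95% interval −0.35 to −0.03), with an unadjusted edgeR p of 0.0221, an adjusted p of 0.810 and an exact permutation p of 0.0857. By p it ranked 343 among the 14696 genes tested. The value was −0.16 without WT replicate 1, −0.25 without ErbB4-/- replicate 4, −0.26 with Xist as a covariate, and below 0 under all 15 alternatives.

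Lifr (chromosome 15, 7079559 to 7147489), the chain that pairs with gp130 for leukaemia inhibitory factor, cardiotrophin 1 and ciliary neurotrophic factor, was at 10.02, 16.5, 15.6 and 13.7 CPM in WT and at 14.3, 16.6, 15.9 and 15.1 CPM in ErbB4-/-. WT replicate 1 was lowest by a wide gap, and WT replicate 4 came next. The fit gave a log2 fold change of 0.14 (SE 0.13, 95% interval −0.15 to 0.44, edgeR adjusted p = 0.8294), 0.02 without WT replicate 1, 0.23 without WT replicate 2 and 0.21 with Xist as a covariate.

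Il6st (chromosome 13, 113265216 to 113297068), which encodes gp130, the chain shared by all these cytokines, was at 30.1, 32.1, 36.1 and 29.5 CPM in WT and at 35.1, 34.7, 34.3 and 35.7 CPM in ErbB4-/-. The ErbB4-/- libraries were closely grouped, with 3 WT libraries below them and WT replicate 3 above them. The SD was 0.605 CPM in ErbB4-/- and 2.98 CPM in WT, and no test of the spread was made. For Il6st the fitted log2 fold change was 0.13 (SE 0.07, 95% interval −0.03 to 0.29, edgeR adjusted p = 0.810; exact permutation p = 0.143), and it was 0.25 with Xist as a covariate and 0.19 without WT replicate 3.

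Jak2 (chromosome 19, 29326318 to 29387570), a kinase bound to gp130, was at 123, 119, 135 and 130 CPM in WT and at 133, 146, 132 and 128 CPM in ErbB4-/-. ErbB4-/- replicate 2 was highest, WT replicates 1 and 2 lowest, and the rest intermixed. The log2 fold change was 0.09 (SE 0.06, 95% interval −0.04 to 0.22, edgeR adjusted p = 0.810). It was 0.05 without ErbB4-/- replicate 2, 0.05 with the trend on transcript length removed and 0.06 with Xist as a covariate.

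Stat3 (chromosome 11, 100746412 to 100800854), the transcription factor at the end of the pathway, was at 36.9, 46.8, 47.3 and 49.7 CPM in WT and at 48.5, 40.1, 43.0 and 44.9 CPM in ErbB4-/-. WT replicate 1 was the lowest library and the other 3 WT libraries lay above ErbB4-/- replicates 2 to 4. Stat3 had a fitted log2 fold change of −0.03 (SE 0.09, 95% interval −0.24 to 0.17, edgeR adjusted p = 0.946), of −0.12 without WT replicate 1 and of −0.16 with Xist as a covariate. Activation of STAT3 is a matter of phosphorylation, which RNA levels do not measure. Exons of Stat3 overlap those of Stat5a on the other strand, which was at 0.256 to 0.627 CPM, and those of Nfia and Nfix overlap other annotated genes in the same way.

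**Figure D3:**
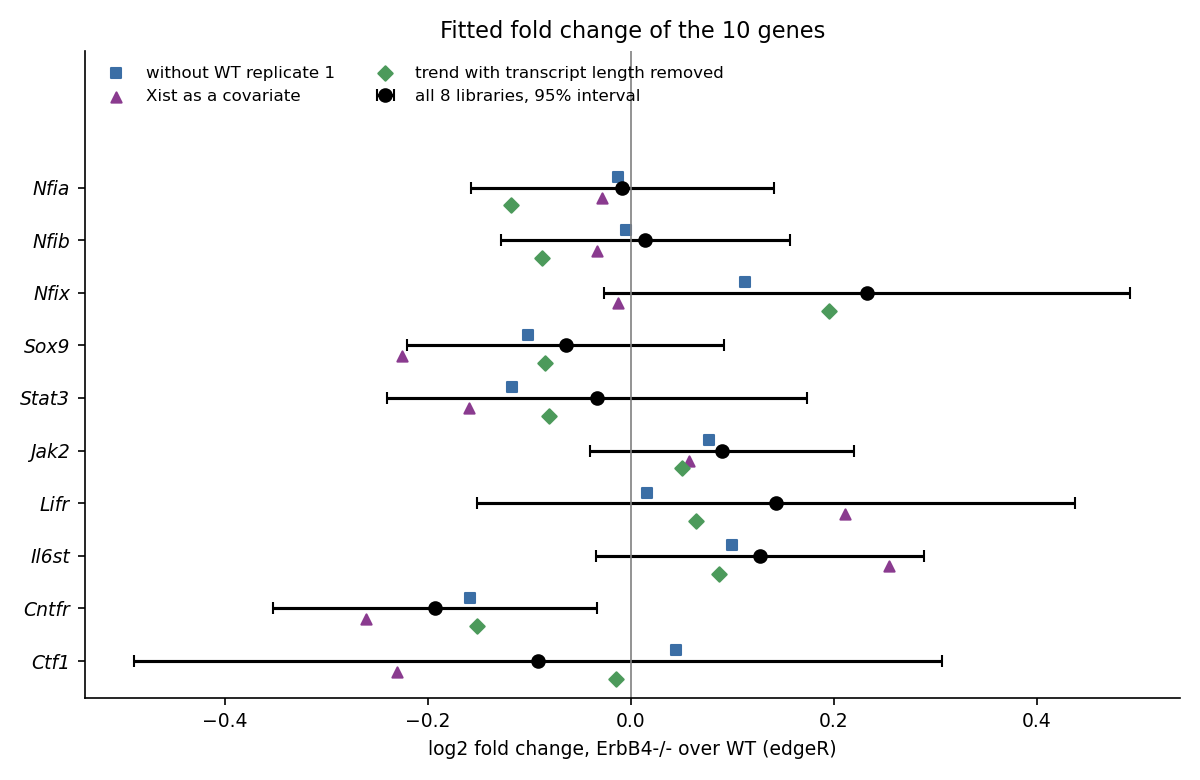
Fitted log2 fold change (ErbB4-/- over WT) of each gene with its 95% interval from all 8 libraries (black), and the value without WT replicate 1 (blue squares), with Xist as a covariate (purple triangles) and with the trend on transcript length removed (green diamonds). The interval of Cntfr lies below 0 and the other 9 include 0, before adjustment over all genes.

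Across the members, no library was high or low throughout. WT replicate 1 was the lowest of the 8 in 3 members (Nfix, Stat3 and Lifr) and the highest in 2 (Cntfr and Ctf1). Ctf1 (1345 bases) and Cntfr (1995 bases) have the shortest transcripts of the 10, and Lifr (9655 bases), Nfia (9526 bases) and Nfib (9116 bases) the longest. The log2 deviation of WT replicate 1 from the mean of the other 7 libraries was −0.62 in Nfix, −0.61 in Lifr, −0.07 in Nfib, −0.0036 in Nfia, 0.23 in Cntfr and 0.47 in Ctf1, and the largest departure of another library was 0.27, for ErbB4-/- replicate 3 in Nfix. ErbB4-/- replicate 4 was highest in Nfia and lowest in none. WT replicate 4, which shared the low Xist of the ErbB4-/- libraries, lay above the ErbB4-/- range in 4 members (Sox9, Stat3, Cntfr and Ctf1), below it in 2 (Lifr and Il6st) and within it in 4 (Nfia, Nfib, Nfix and Jak2). This sets 1 library against 4 and allows no test.

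**Figure D4:**
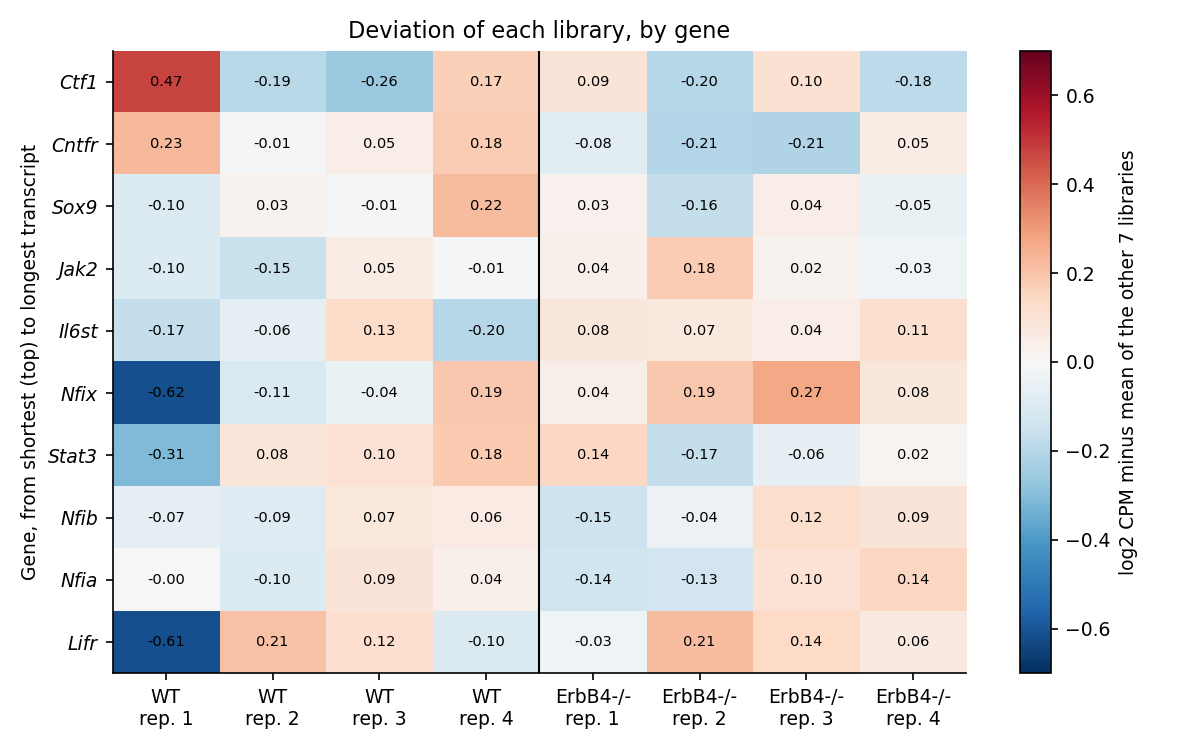
Log2 CPM of each gene in each library minus the mean of the other 7 libraries, with genes ordered from the shortest transcript (top) to the longest and WT libraries left of the line. WT replicate 1 departs most, from −0.62 in Nfix to 0.47 in Ctf1.

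The rest of the pathway was described with 70 further genes in 7 lists, of which 64 passed the filter on low counts. None of the 64 was called by edgeR (smallest adjusted p = 0.810, none by DESeq2 or limma-voom), and 8 had an unadjusted p under 0.05, of which 3 were higher and 5 lower in ErbB4-/-, against 5.53% of all genes tested. The libraries of the genotypes did not overlap in 2 of the 64, Il11 and Sox10, against 3.34% of all genes tested, a share near the background that is no result about these genes. Log2 fold changes were above 0 in 34 of the 64, with a median of 0.01.

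Of 8 ligand genes of the gp130 family, Lif, Clcf1, Osm, Il6 and Ctf2 were too low to be tested. Il11, a further ligand of gp130, was at 0.678, 0.289, 0.626 and 0.541 CPM in WT and at 0.690, 0.776, 0.743 and 1.14 CPM in ErbB4-/-. Its groups did not overlap, although the highest WT and the lowest ErbB4-/- value lay side by side, on 9 to 36 reads per library (log2 fold change 0.63, SE 0.30, edgeR adjusted p = 0.810). Ciliary neurotrophic factor (Cntf), named because its receptor chain came nearest to a difference, had 4 to 22 reads per library, with means of 0.352 CPM in WT and 0.184 CPM in ErbB4-/- and an edgeR adjusted p of 0.810 (log2 fold change −0.98, or −0.63 without WT replicate 3). Of the other receptors, the most abundant had log2 fold changes of −0.06 (SE 0.19) for Il11ra1 and 0.01 (SE 0.21) for Osmr.

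Kinases, STATs and inhibitors gave 0 calls by edgeR among 24 genes, against 0.0272% of all genes tested. None of the 24 had an unadjusted edgeR p under 0.05, against 5.53% of all genes tested. Counts this near the background are no result about these genes. The log2 fold change was 0.05 (SE 0.06) for Jak1, the partner kinase of Jak2, and −0.01 (SE 0.08) for Stat2, a STAT of interferon signalling. Ptpn11, the phosphatase that binds gp130, had a mean of 296 CPM in each genotype. Socs7, with the highest CPM of the SOCS inhibitor genes, was at 194 ± 9.78 CPM in WT and 208 ± 8.06 CPM in ErbB4-/- (SD, n = 4 each; log2 fold change 0.10, SE 0.05, edgeR adjusted p = 0.810), and its log2 fold change was 0.07 without WT replicate 1 and 0.04 with the trend on transcript length removed. Socs3, which is switched on by active STAT3 and whose promoter is printed above, was at 15.1, 15.05, 13.3 and 13.3 CPM in WT and at 13.1, 13.2, 14.0 and 15.1 CPM in ErbB4-/-. The Socs3 values were intermixed, with a log2 fold change of −0.03 (SE 0.09), which was −0.0786 without ErbB4-/- replicate 4 and −0.0028 without WT replicate 2.

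Among the related transcription factors, Sox10, which marks the oligodendrocyte lineage, was at 3.17, 3.79, 2.29 and 1.99 CPM in WT and at 4.45, 4.62, 4.15 and 3.88 CPM in ErbB4-/-. All ErbB4-/- libraries lay above all WT libraries. The log2 fold change was 0.61 (SE 0.19) with an edgeR adjusted p of 0.810 and an exact permutation p of 0.0286, the smallest this design allows, and with Xist as a covariate it was 1.09. Summed markers of oligodendrocyte precursors, Sox10 included, overlapped at 43.6 to 58.9 CPM in WT and 50.6 to 64.8 CPM in ErbB4-/-. Nr2f1, a regulator of cortical area and of glial competence, had a log2 fold change of −0.19 (SE 0.08, edgeR adjusted p = 0.810), or −0.11 without WT replicate 1, and Pou3f2, a factor of upper-layer neurons, of 0.16 (SE 0.09), or 0.27 with Xist as a covariate.

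Log2 fold changes of the early glial targets ran from −0.16 to 1.04. Gfap, which the study used as a read-out of ErbB4, was at 0.571, 0.930, 0.652 and 0.798 CPM in WT and at 1.89, 2.07, 1.23 and 0.858 CPM in ErbB4-/-. ErbB4-/- replicates 1 to 3 lay above all WT libraries and replicate 4 lay among them. The log2 fold change was 1.04 (SE 0.30) on 16 to 93 reads per library, with an unadjusted edgeR p of 0.00454, an adjusted p of 0.810 and an exact permutation p of 0.0571. S100b, another astrocyte gene, had 1 to 15 reads per library and was not tested.

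Tnc, an extracellular matrix gene of radial glia and astrocytes, was at 82.9, 106, 99.0 and 93.2 CPM in WT and at 132, 147, 123 and 96.7 CPM in ErbB4-/- (log2 fold change 0.39, SE 0.11, edgeR adjusted p = 0.810). As with Gfap, only ErbB4-/- replicate 4 lay within the WT range. Apcdd1, a gene of the same list, had a log2 fold change of −0.16 (SE 0.07, edgeR adjusted p = 0.810), or −0.26 with Xist as a covariate. It does not stand for the list, since 6 of its 10 tested genes had log2 fold changes above 0, with a median of 0.0812. The abundant glial genes Slc1a3, a glutamate transporter, and Fabp7, a lipid-binding protein of radial glia, had log2 fold changes of 0.09 (SE 0.05) and −0.04 (SE 0.12), and Fabp7 was at 730 CPM in WT replicate 1 against 460 to 553 CPM in the other libraries.

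Among corepressors and timing factors, the 2 partners of ErbB4 had small fitted changes. Ncor1 was at 250 CPM in WT replicate 1 against 333 to 371 CPM in the other libraries. The log2 fold change was 0.07 (SE 0.11) for Ncor1, 0.01 (SE 0.05) for Tab2 and −0.05 (SE 0.06) for Dnmt1, which maintains DNA methylation. For Dnmt1 it was −0.0132 without ErbB4-/- replicate 3, −0.0851 without WT replicate 1 and −0.0966 with the trend on transcript length removed. Neurog1, which promotes neurons and holds back glia, was at 11.9, 7.83, 9.80 and 10.5 CPM in WT and at 4.97, 4.91, 7.02 and 8.89 CPM in ErbB4-/-. ErbB4-/- replicate 4 again lay among the WT libraries and the other 3 below them all (log2 fold change −0.64, SE 0.19, edgeR adjusted p = 0.810). Neurog2 was at 203 ± 27.6 CPM in WT and 159 ± 23.0 CPM in ErbB4-/- (SD, n = 4 each; log2 fold change −0.35, SE 0.11, edgeR adjusted p = 0.810), and Hes1, a target of Notch that keeps precursors undifferentiated, at 19.3 ± 1.67 and 16.3 ± 1.40 CPM (log2 fold change −0.24, SE 0.09, edgeR adjusted p = 0.810). Cntf, Socs3, Tab2, Tnc, Apcdd1, Neurog1, Neurog2 and Hes1 were singled out after their values had been seen.

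**Figure D5:**
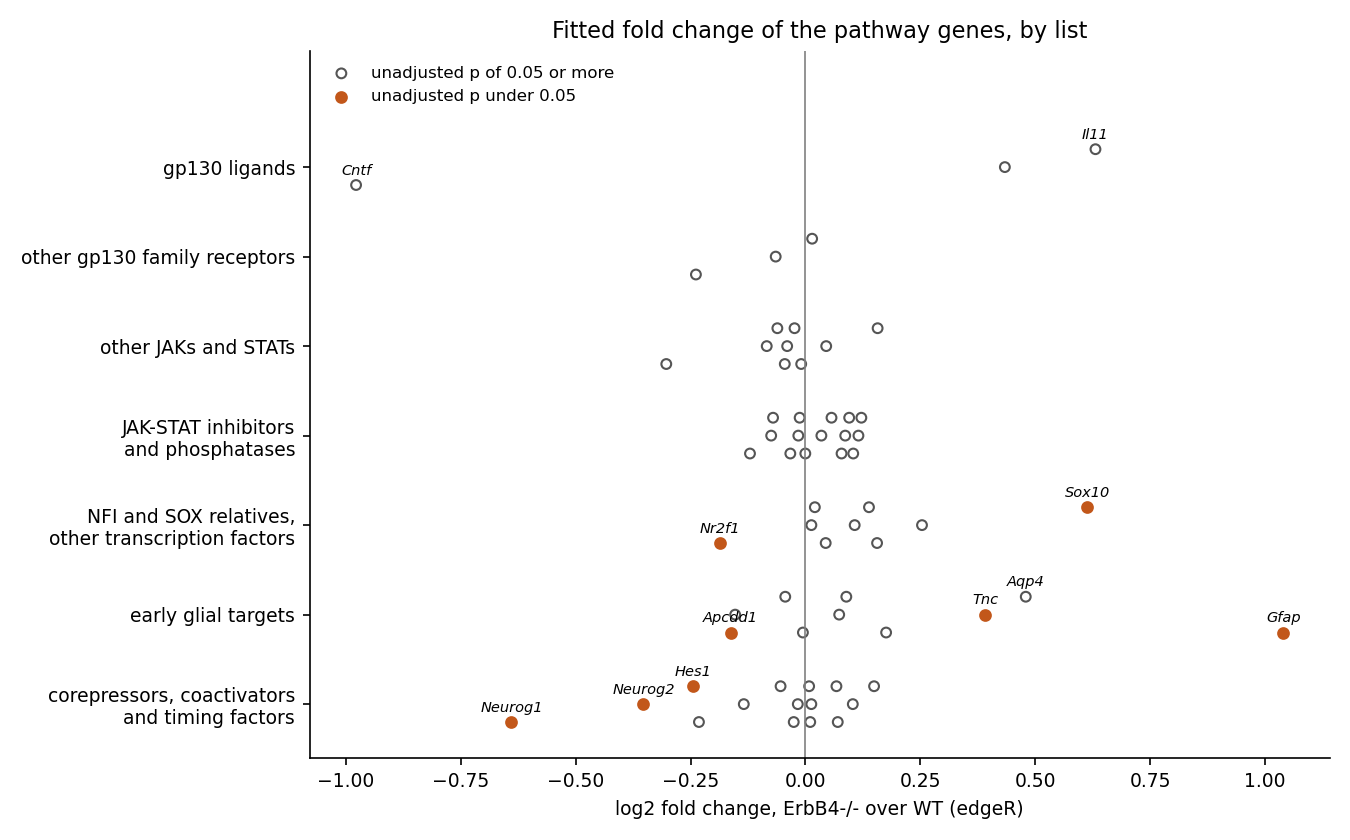
Fitted log2 fold change (ErbB4-/- over WT, edgeR) of the 64 tested genes of the 7 pathway lists, 1 point per gene, with filled points where the unadjusted p was under 0.05. The 8 filled points are spread over 3 lists and none passed the adjustment over all genes.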

How the data were processed

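RNA-seq of E15.5 dorsal cortex was analysed in 4 WT and 4 ErbB4-/- libraries, grouped by their labels. Libraries were polyA-selected and kept no strand. The authors aligned the reads (single-end) with HISAT on mm9 and used HTSeq for counting. The deposited files hold raw counts per gene symbol, 23284 in each. The gene annotation and the counting mode are not given in the sources used here. The authors' table of DESeq2 fold changes and p-values was not used.

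The main test was the quasi-likelihood test of edgeR 4.0.16 (R 4.3.3), two-sided, after TMM normalisation and filterByExpr (minimum count 10, minimum total 15). P-values were adjusted by Benjamini-Hochberg over 14696 genes, with a threshold of 0.05. CPM are after TMM normalisation, and log2 values per library have a prior count of 2. Exact permutation tests of single values, two-sided, ran over the 70 ways to assign the libraries, and their smallest p is 0.0286. Depth, 28205703 to 48871480 counts per library, enters the fitted errors, and the common biological coefficient of variation was 10.7%. No source says which embryos shared a litter, so p-values measure the spread between these libraries.

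Positions and transcript lengths came from the GENCODE annotation of mm9, and promoter windows from RefSeq on GRCm38.p6, a different build. As alternatives, the fit was repeated with DESeq2 1.42.0, limma-voom (limma 3.58.1), relative log expression normalisation, no filter, a replicate block, Xist as a covariate, removal of the trend on transcript length, and each library left out. The steps were tested on simulated data. The members and gene lists were chosen with earlier results of these data known. The text names all members, the 2 genes of highest mean CPM in each list, any gene called or with libraries that did not overlap, and Gfap and S100b, besides those said to be singled out later. Of these, 1 gene is not reported here. Plots were made in matplotlib 3.10.9 (Python 3.11.15).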

Additional observations from a re-analysis of the deposited data

Results flagged for a closer look

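In 2 of 70 groups of 4 libraries examined (each genotype for the members, the other genes named and Erbb4), one library stood far from the other 3, and both times it was WT replicate 1. For Jak1 it was at 87.1 CPM against 96.2 to 97.6 CPM in the other WT libraries, a gap of 0.868 of the group's range. For Socs7 it was at 179 CPM against 198 to 200 CPM, a gap of 0.890 of the range, past the 95% limit of Dixon's test for 4 samples in both cases. Chance alone flags about 5% of such groups. WT replicate 1 was also low in long transcripts. The log2 fold change of Jak1, 0.0452 over all libraries, was 0.0092 without WT replicate 1 and 0.0098 with the trend on transcript length removed, and that of Socs7, 0.104, was 0.0684 and 0.0355. No member was picked out in this way.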

How the results depend on the processing

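Under all 15 alternatives, 0 members and 0 pathway genes were called, while the calls over all genes, 4 in the reported fit, ran from 1 to 24 (24 with DESeq2). Of the 10 members, 5 (Sox9, Jak2, Lifr, Il6st and Cntfr) kept their sign under every alternative, as did 15 of the 23 other genes named with a test. The smallest adjusted p of any member was 0.429, for Cntfr without ErbB4-/- replicate 4, in a range of 0.429 to 1.00 over its alternatives. With Xist as a covariate, log2 fold changes changed sign in Nfib (−0.0335), Nfix (−0.0120), Il11ra1 (0.211), Osmr (−0.0973), Fabp7 (0.0695), Ncor1 (−0.0499) and Socs3 (0.0518), and with the length trend removed in Nfib (−0.0876), Osmr (−0.0134), Fabp7 (0.0635), Ncor1 (−0.0101) and Tab2 (−0.0152). With that trend removed and no change of sign, Nfia was at −0.117, Lifr at 0.0644, Stat3 at −0.0805 and Ctf1 at −0.0139. Ptpn11, at −0.00028, was at 0.000666 with DESeq2, 0.000858 with relative log expression and 0.000881 with the replicate block. Leaving out 1 library at a time gave ranges across 0 for Nfia (−0.0571 to 0.0297), Nfib (−0.0202 to 0.0573), Stat3 (−0.117 to 0.0161), Ctf1 (−0.182 to 0.0448), Il11ra1 (−0.211 to 0.0860), Osmr (−0.0888 to 0.191), Stat2 (−0.0676 to 0.0384), Ptpn11 (−0.0309 to 0.0314), Fabp7 (−0.125 to 0.114), Ncor1 (−0.0491 to 0.122) and Tab2 (−0.0182 to 0.0288). It also gave 0 to 1 members with separated libraries (Il6st without WT replicate 3, Nfix without WT replicate 4, Cntfr without ErbB4-/- replicate 4). Over all genes tested, 1062 of 14784, 861 of 14777 and 1478 of 14821 were separated in these settings, in that order. With all libraries it was 491 of 14696. Against these shares, 1 of the 10 members is no result about them. The cause of these moves was not tested. Replicate numbers were not taken as pairs because the lines were bred as separate colonies. Same-numbered libraries correlated at 0.0236 to 0.135 in their deviations and 2 of 4 best with their own number, which does not settle whether they are pairs. With the replicate block, the calls over all genes went from 4 to 1, Nfix was at 0.25 and Cntfr at −0.19. Genes with an unadjusted edgeR p under 0.05 went from 812 to 1025 with the block. That p went from 0.0739 to 0.0237 for Nfix (adjusted 0.706) and from 0.0221 to 0.00848 for Cntfr (adjusted 0.673). Within WT, Xist was at 3.48 CPM in replicate 4 and at 983 to 1687 CPM in replicates 1 to 3, so its part rests mainly on replicate 4. Few reads limit Ctf1, Cntf, Il11, Gfap and S100b.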
